A study of Mus musculus with 2 samples.

Results

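The genes described here encode the proteins of the cytoplasmic ribosome. They were chosen by symbol: protein-coding genes of the GENCODE M21 annotation of mm10 on chromosomes 1 to 19 whose symbol begins with Rpl or Rps and a digit, with Rpsa, Rplp0, Rplp1 and Rplp2 added and the Rps6k kinases and symbols holding -ps removed. The rule found 82 of 20753 genes, of which 46 had Rpl symbols of the large subunit, 33 had Rps symbols of the small subunit and 3 encoded the stalk proteins Rplp0, Rplp1 and Rplp2. No measured value entered the rule, which was chosen with earlier results of these data known. A rule on symbols also takes in Rps19bp1, whose product binds RPS19 and is not part of the ribosome, and Rps27rt, a retrogene of Rps27. The X-linked Rpl10, Rpl36a, Rpl39 and Rps4x lie outside it. Chromosome 7 carried 14 of the 82 genes, more than any other chromosome.

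Whole thymus was assayed by DNase-seq, which maps open chromatin by where DNase I cuts nuclear DNA. It came from 2 female mice at 14 days of age, of the hybrid B6CASTF1/J, whose parents are C57BL/6J and CAST/EiJ. The animals are biological replicates 1 and 2 of the only group and carry different animal numbers but a shared donor identifier. There is no treated or mutant group and each library is 1 animal, so nothing below was tested between animals, and each value is given for both. In whole tissue a promoter open in fewer cells and a promoter less open in every cell cannot be told apart.

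Each ribosome is built from a small subunit, which decodes the mRNA, and a large subunit, which joins amino acids and carries the stalk to which translation factors bind. Nearly every ribosomal protein is needed in equal number, so its genes are active in all growing cells. Their promoters often lack a TATA box and start transcription at a cytosine within a run of pyrimidines, which becomes the 5′ terminal oligopyrimidine (TOP) motif of the mRNA. In the thymus ribosomal proteins have been studied through Rpl22, whose loss in mice impairs the development of αβ T cells.

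Replicate 1 had 97051 peaks and 276400 footprints, against 108010 and 318156 in replicate 2. The read depth behind them is unknown from the deposited tables. All 14 thymocyte genes listed, among them Cd3e, Cd8a, Rag1 and Bcl11b, had a promoter peak in both replicates, against 59.4% of all 20753 genes. Of other cell types, 3 of 7 thymic epithelial genes, 1 of 5 B cell, 2 of 5 myeloid, 1 of 5 erythroid, 2 of 5 striated muscle, 2 of 5 testis germ cell and 0 of 5 hepatocyte genes did.

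Ribosomal protein promoters were nearly all open. A promoter was counted as open when a peak overlapped the 500 bp on either side of any annotated transcription start site (TSS) in both replicates, and this held for 78 of the 82 genes (95.1%), against 59.4% of all 20753 genes. The same 78 had a peak in replicate 1, where the share of all genes was 61.2%, and in replicate 2, where it was 62.2%. All 78 were also open in the authors' stricter peak lists, against 55.5% of all genes. The open genes were 43 of the large subunit, 32 under Rps symbols and the 3 stalk genes. When only the outermost start of each gene was read, Rpl17 and Rps10 were lost and 76 remained, against 56.9% of all genes.

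The 4 genes without a promoter peak were Rpl10l, Rpl39l, Rpl3l and Rps27rt. Rpl10l and Rpl39l are known as genes of the testis and Rpl3l as a gene of heart and skeletal muscle. Within 500 bp of any start of these 4 genes, neither replicate had a peak, a footprint or a base listed with a false discovery rate under 0.05. The peak nearest to Rpl39l lay 22693 bp away in replicate 1 and 22566 bp away in replicate 2. For Rpl3l these distances were 3280 and 3260 bp, for Rps27rt 3625 and 3719 bp, and for Rpl10l 118729 and 3538 bp. The genes they are named after were all open: Rpl3, a core protein of the large subunit, had a strongest peak of 19.2 in replicate 1 and 10.8 in replicate 2, and Rps27 one of 8.88 and 4.63. On the X chromosome Rpl10 had 9.48 and 4.02 and Rpl39 had 6.38 and 3.77. These values are the authors' signal of the strongest peak at the promoter, called its strength below.

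A symbol ending in l, l1 or al did not by itself go with a closed promoter. Rpl22l1, the paralogue of Rpl22, reached 19.8 in replicate 1 and 8.60 in replicate 2, against 14.0 and 4.89 for Rpl22. Rpl36al had 12.7 and 7.79, against 7.70 and 4.88 for the X-linked Rpl36a. Rpl7l1 had 9.28 and 5.70, against 5.64 and 5.76 for Rpl7. Rps27l had 9.82 and 4.49, close to the values of Rps27. Rpl22l1 and Rpl36al thus ranked above the gene they are named after in both replicates, whereas Rpl7l1 and Rps27l did so in replicate 1 only.

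Copies elsewhere in the genome can keep reads from being placed. Of the 32-base words within 500 bp of the start, 100% occurred once in the assembled chromosomes for Rpl39l, 99.8% for Rpl3l, 75.2% for Rpl10l and 60.3% for Rps27rt. Over all 82 genes this share had a median of 94.5%. Rps29, with 60.5%, was open in both replicates, at strengths of 14.7 and 6.36.

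The closed promoters also differed among themselves in CpG content, which is high at most promoters active in all tissues. Over the 300-base RefSeq window (250 bases before the start and 50 after it) the observed-to-expected CpG ratio was 0.836 for Rpl39l, 0.643 for Rpl10l, 0.633 for Rps27rt and 0.0892 for Rpl3l. Among 51 open ribosomal protein genes it had a median of 0.928, against 0.796 over 8069 open promoters. A ratio of 0.6 or more was found at 45 of the 51 (88.2%) and at 79.2% of the 8069. Of the closed promoters, Rpl39l, Rpl10l and Rps27rt also reached 0.6 and Rpl3l did not. The stretches below, from RefSeq on GRCm38.p6, run from 80 bases before the start to 20 after it and show this range, with every CpG in capitals. Rpl39l is at chr16:10170148-10170247 on the plus strand, Rpl10l at chr12:66284382-66284481 on the minus strand and Rpl3l at chr17:24727746-24727845 on the plus strand.
Rpl39l: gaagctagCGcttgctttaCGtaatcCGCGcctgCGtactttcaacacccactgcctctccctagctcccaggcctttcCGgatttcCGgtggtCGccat
Rpl10l: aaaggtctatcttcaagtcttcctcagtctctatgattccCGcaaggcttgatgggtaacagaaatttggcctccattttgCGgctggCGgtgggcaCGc
Rpl3l: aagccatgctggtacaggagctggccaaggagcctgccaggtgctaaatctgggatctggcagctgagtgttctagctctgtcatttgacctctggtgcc
Rpl39l holds 8 CpGs in this stretch, Rpl10l 4 and Rpl3l 0.

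Open ribosomal protein promoters were stronger than most open promoters and spread less in strength than open promoters at large. The median strength was 12.4 in replicate 1 and 6.58 in replicate 2, against 6.19 and 4.08 over all 12325 open promoters, which is 2.01 and 1.61 times higher. Quartiles of strength over the 78 genes lay at 8.82 and 17.0 for replicate 1, and at 4.95 and 8.43 for replicate 2. Ranked among all open promoters within each replicate, their median percentile was 75.4 in replicate 1 and 75.3 in replicate 2. In both replicates 68 of the 78 (87.2%) lay above the median, against 44.3% of all open promoters, and 31 (39.7%) lay above the 75th percentile, against 17.7%. None of them lay below the 25th percentile in either replicate. The SD of log2 strength was 0.75 in replicate 1 and 0.53 in replicate 2 for the 78 genes, against 1.77 and 1.43 over all open promoters. A narrow spread was not particular to these genes. Strengths of 14 RNA polymerase I genes ran from 3.40 to 16.4 in replicate 1 and from 2.59 to 10.1 in replicate 2. For the 78 genes they ran from 2.23 to 26.4 and from 1.93 to 15.0. Genes are not replicates, so these figures describe the 2 libraries.

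**Figure D1:**
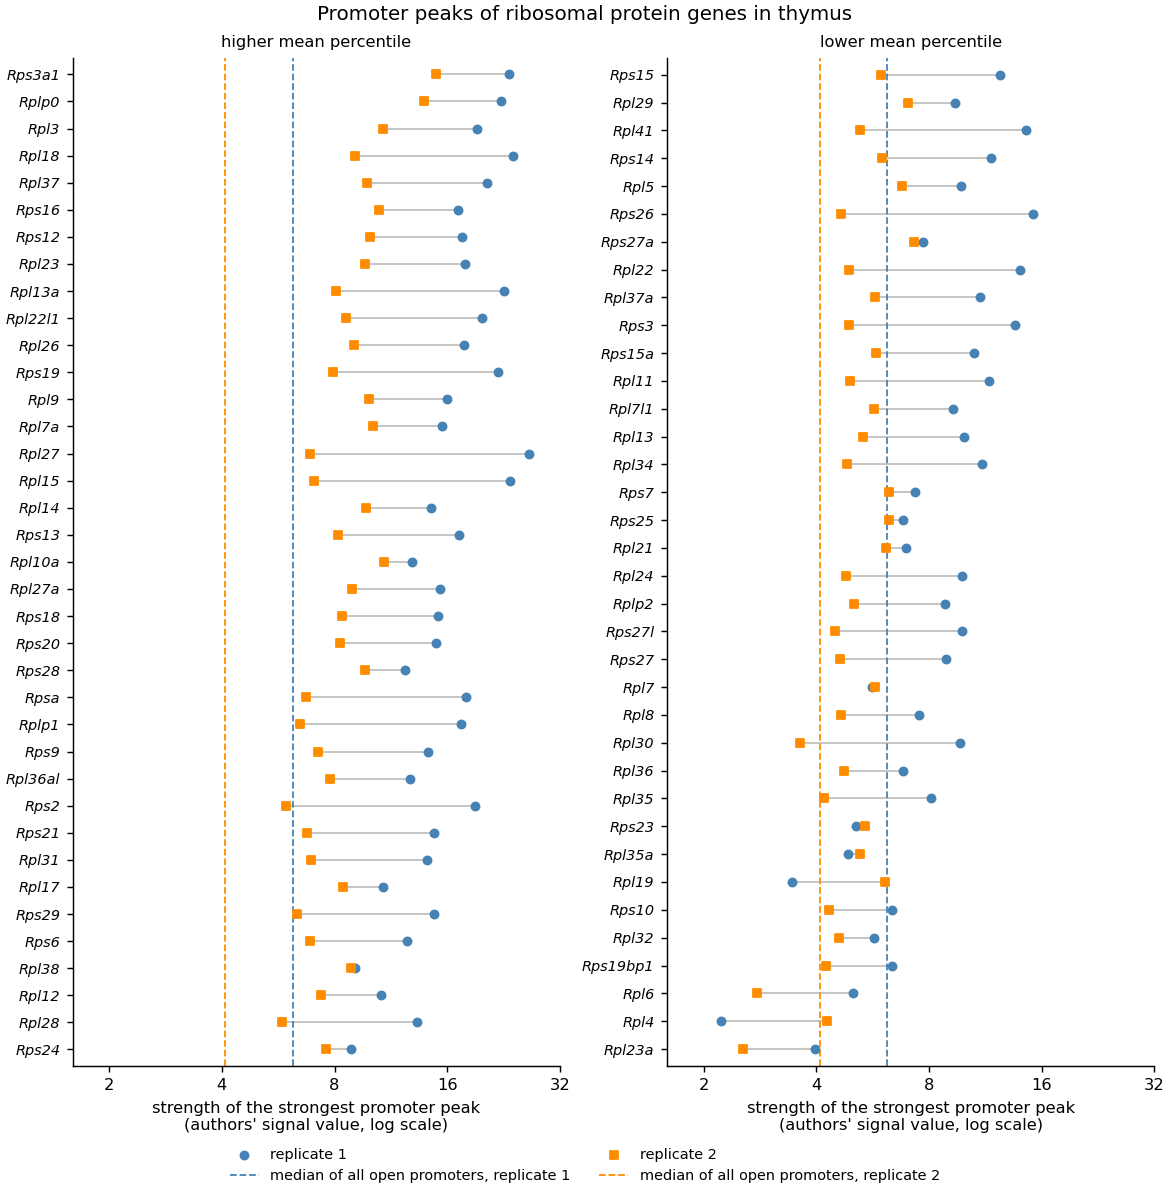
Strength of the strongest promoter peak (authors' signal value, log scale) for 73 open ribosomal protein genes in replicate 1 (circles) and replicate 2 (squares), ordered by mean percentile, with dashed lines at the median of all 12325 open promoters in each replicate. Rps3a1 and Rplp0 head the order, Rpl6, Rpl4 and Rpl23a close it, and 64 genes lie above the dashed line of their replicate in both.

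Rps3a1, a protein of the small subunit, had the highest mean percentile, at strengths 23.3 in replicate 1 and 15.0 in replicate 2. Rplp0, the base of the stalk, followed with 22.3 and 13.8. Both stood above the 90th percentile in each replicate. High percentiles were also found at Rpl3, Rpl18, Rpl37, Rps16 and Rps12, whose strengths lay between 17.1 and 24.0 in replicate 1 and between 9.06 and 10.8 in replicate 2. Rpl18 is listed with 5 starts, and its strongest peak was at a different one in each replicate. At chr7:45715221-45715440 it had 24.0 in replicate 1, and at chr7:45717921-45718140 it had 9.06 in replicate 2.

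The stalk genes differed among themselves. Rplp1 had 17.4 in replicate 1 and 6.45 in replicate 2, and Rplp2 had 8.81 and 5.06. Rplp0 exceeded both in each replicate. Rpsa, a small-subunit protein also known as a laminin receptor, had 18.0 and 6.71. Large-subunit genes had a median strength of 11.1 in replicate 1 and 6.16 in replicate 2, and Rps genes of 13.0 and 6.73, a difference small beside the spread within either subunit.

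At the low end Rpl23a had 3.97 in replicate 1 and 2.56 in replicate 2, at percentiles 37.3 and 33.7. Rpl6 had 5.02 and 2.78, and Rpl4 had 2.23 and 4.28. Of these 3 only Rpl4 passed the median of all open promoters, and only in replicate 2. Rps19bp1, Rpl32, Rps10 and Rpl19 were also among the lowest 8, with mean percentiles between 51.5 and 52.3. These 7 genes were thus near or below the middle of all open promoters.

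The replicates ordered the 78 genes less alike than they ordered open promoters at large. Spearman's rho between the replicates was 0.624 over the 78 genes and 0.911 over all 12325 open promoters. The 78 span a narrower range of strength, and whether that accounts for the gap was not tested. Among the largest differences, Rpl19 had 3.44 in replicate 1 and 6.10 in replicate 2, at percentiles 33.8 and 70.8. Rpl38, a protein tied to the translation of Hox mRNAs in mice, had 9.06 and 8.87. Both had the higher percentile in replicate 2. The peak of Rpl19 was called as 1 peak of 400 bp in replicate 2 and as separate peaks in replicate 1.

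Most promoters held 1 compact peak over the start. In replicate 1, 42 of the 78 (53.8%) had 1 promoter peak, against 47.1% of all open promoters, and in replicate 2 59 (75.6%) had, against 52.0%. The strongest peak had a median width of 200 and 240 bp in replicates 1 and 2, against 220 and 240 bp. It was over 400 bp wide at 0 of the 78 in replicate 1 and 6 (7.69%) in replicate 2, against 4.22% and 14.3%. Its midpoint lay within 100 bp of the start at 67 genes (85.9%) in replicate 1 and 60 (76.9%) in replicate 2, against 65.5% and 62.4% of all open promoters. The median midpoint was 23.5 bp upstream of the start in both replicates, which is written -23.5, against -34.5 and -31.5 over all open promoters. A single promoter peak was more frequent still at mitochondrial ribosomal protein genes, with 66.7% and 79.5%. It was less frequent at genes of TOP mRNAs, with 41.2% and 52.9%, and of ribosome biogenesis, with 46.9% and 63.3%. RNA polymerase I genes, with 57.1% and 50%, exceeded the 78 genes in replicate 1 only.

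A few genes had their strongest peak off the start. At Rpl35 it lay 443.5 bp downstream in replicate 1 and 463.5 bp downstream in replicate 2, at strengths of 8.08 and 4.19. At Rpl7 it lay 241.5 bp downstream in both. Rpl4 had it upstream, at -494.5 bp in replicate 1 and -354.5 bp in replicate 2, where the oppositely transcribed Zwilch starts 271 bp from the start of Rpl4. These 3 genes were chosen after their values were seen.

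Bases with a low false discovery rate reached further at these promoters. The authors' track gives, for each run of bases, the false discovery rate of its cut rate. Just downstream of the start, from 0 to 99 bp, 99.5% of bases at ribosomal protein promoters were at 0.001 or less in each replicate, against 86.5% in replicate 1 and 89.6% in replicate 2 over all open promoters. From 200 to 299 bp downstream the shares were 94.2% and 98.7%, against 72.3% and 82.2%. Far upstream, from -500 to -401 bp, they were 39.5% and 52.3%, against 35.4% and 50.3%. Nearer the start on the upstream side, from -300 to -201 bp, they were 80.2% and 89.7%, against 64.1% and 76.6%. The margin over open promoters at large was thus smallest far upstream among these stretches. At the matched distance from the start it was somewhat wider inside the gene than upstream in both replicates. Among stronger promoters the order was the other way. The 74 ribosomal protein genes with a mean percentile above 50 had a median of 835.5 and 903 such bases of 1001 in replicates 1 and 2. All open promoters with a mean percentile above 50 had a median of 871 and 987.

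**Figure D2:**
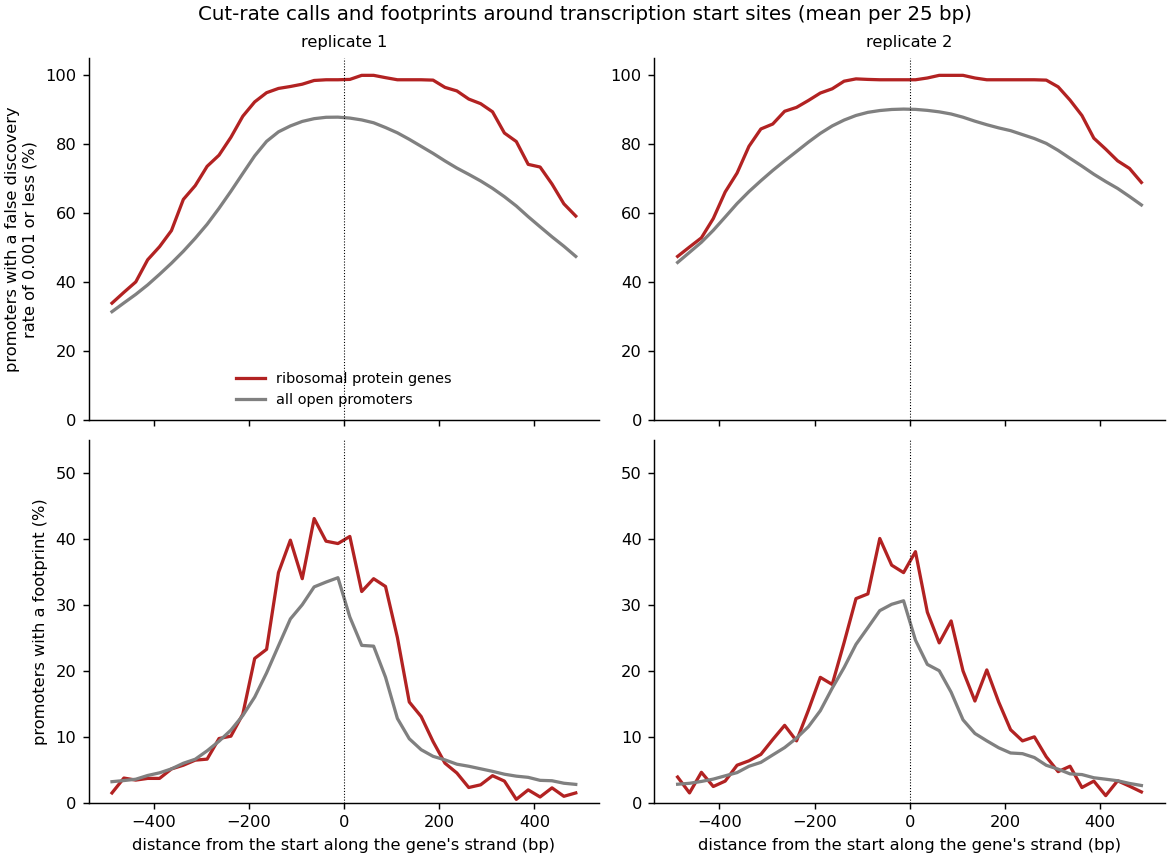
Share of promoters (%, mean per 25 bp) with a false discovery rate of 0.001 or less (top) and with a footprint (bottom) by distance from the start along the gene's strand, in replicates 1 and 2, for the 78 open ribosomal protein genes (red) and all 12325 open promoters (grey). From 0 to 99 bp the red curves of the top panels average 99.5% in each replicate, and from 100 to 199 bp footprints cover 15.7% and 17.7% of bases in the red curves, against 9.39% and 10.2% in the grey.

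A footprint is a short run of bases cut less often than the open DNA around it, as happens under a bound protein. The 78 promoters held 676 footprints in replicate 1 and 806 in replicate 2 within 500 bp of the start, with a median of 8 and 10 per promoter, against 7 and 8 over all open promoters. Among promoters with a mean percentile above 50 there was no such excess. The 74 ribosomal protein genes there had a median of 8.5 and 10, against 9 and 10 for all open promoters there. Where only footprints inside a peak were counted, the median over both replicates was 5.5 for the 78 genes and 5.5 for all open promoters.

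Footprints of the 78 genes lay within 200 bp of the start more often than those of all open promoters, but not consistently within 100 bp. Within 200 bp of the start lay 78.4% of the footprints of the 78 genes in replicate 1 and 70.8% in replicate 2, against 69.2% and 67.6%. Within 100 bp lay 45.4% and 40.4%, against 42.8% and 40.7%, so the order differed between replicates. In the 100 bp downstream of the start footprints covered 34.8% and 29.7% of bases, against 23.7% and 20.6%. Upstream, from -100 to -1 bp, they covered 39.0% and 35.7%, against 32.6% and 29.1%. Between 400 and 499 bp downstream the order was the other way, with 1.40% and 2.14% at ribosomal protein genes, against 3.12% and 3.11%.

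Rpl7 had the most footprints, 19 in replicate 1 and 23 in replicate 2. Rpl4 had 8 and 22, Rps19, which is mutated in human Diamond-Blackfan anaemia, had 15 and 15, and Rps27a, which is made as a fusion with ubiquitin, had 10 and 18. Rpl15 had 13 and 14. Rpl4 and Rps27a owed their place to replicate 2. Few were found at Rpl22l1 with 5 and 5, Rpl23a with 4 and 6, Rpl24 with 6 and 5 and Rps24 with 5 and 6. Few footprints did not require a weak peak, since Rpl22l1 stood at percentiles 90.5 and 88.8.

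Promoter sequence was read from RefSeq windows on GRCm38.p6. The table held 62 of the 82 genes, and 51 open genes had a RefSeq start within 100 bp of the start used here. The reference was 8069 open promoters with such a window. Among those not in the table were Rpl17, Rpl21, Rpl23a, Rpl29, Rpl3, Rpl30, Rpl32, Rpl36, Rpl7, Rpl8, Rplp1, Rps14, Rps20, Rps27a and Rps29. Strings were searched on both strands unless said otherwise, and a match is only a match of letters. Positions count the RefSeq start as 1, with no 0, and a string counted as covered when a footprint shared at least 1 base with it in both replicates.

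The string CCGGAAG of ETS family factors was present in 21 of the 51 promoters (41.2%), against 20.5% of all 8069. Within 50 bases of the start on the sense strand it was present in 10 (19.6%), against 7.30%. The string AANATGGCG of YY1 was present in 7 (13.7%), against 5.80%. A palindrome named here after ZBTB33 (also called Kaiso) was present in 4 (7.84%), against 1.23%. Its letters are the capitals in the sequences of Rpl26, Rps6 and Rps28 below, and which protein binds it was not tested. A pyrimidine tract, meaning a C within 5 bases of the start followed by at least 4 pyrimidines on the sense strand, was present in 22 (43.1%), against 20.2%. These 4 were more frequent at ribosomal protein genes, and the counts behind ZBTB33 and YY1 are small. A pyrimidine tract at a start other than the RefSeq one was not sought in either set, so genes counted without a tract may have one there.

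Of the other strings most were as frequent as at open promoters at large, or rarer. GGGCGG of SP factors was present in 30 promoters (58.8%), against 70.0%, and CCAAT of NFY in 16 (31.4%), against 39.7%. The NRF1 string, with its letters in capitals below in Rpl37a, Rps15 and Rps16 and any base in its middle, was present in 6 (11.8%), against 12.3%, and the E-box CACGTG in 5 (9.80%), against 10.9%. The CRE TGACGTCA was again more frequent, on few genes, being present in 4 (7.84%), against 3.88%, and ACTACAA of ZFP143 in 3 (5.88%), against 4.73%. TATAAA between 40 and 20 bases before the start was present in Rpl22l1 alone, against 0.942% of all promoters. No 2 of these strings contain one another, but matches of different strings can overlap in a promoter, as CRE and ZFP143 do at Rps9. The GC content of the window was 59% in the median for the 51 genes, against 62%.

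**Figure D3:**
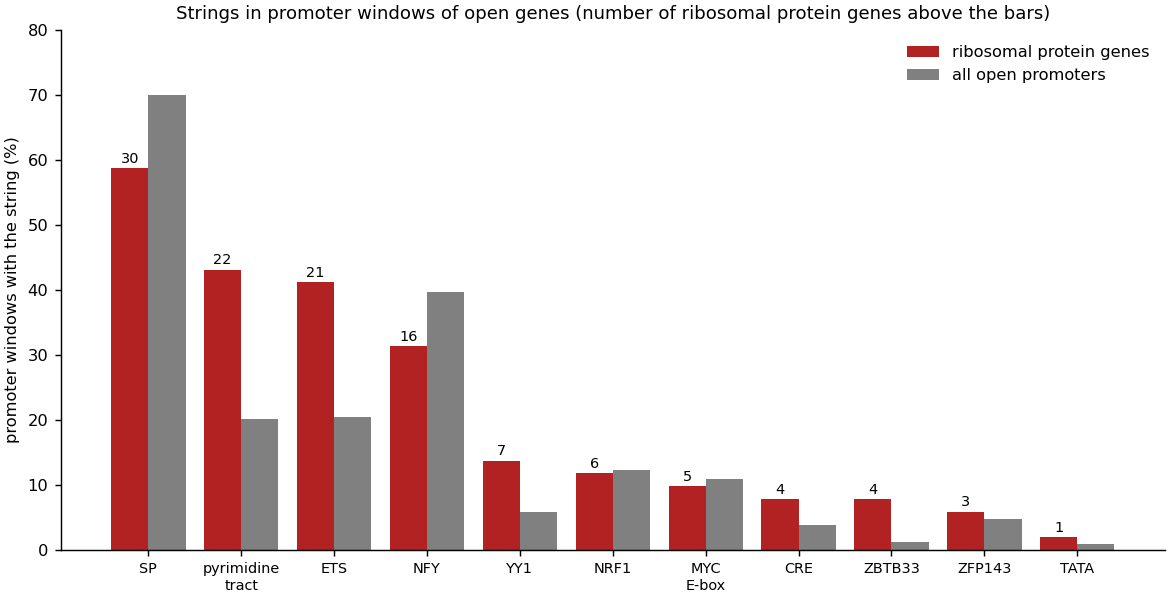
Share of promoter windows with each string (%), for 51 open ribosomal protein genes (red) and 8069 open promoters (grey), with the number of ribosomal protein genes above the red bars; the pyrimidine tract was sought only at the start and TATA only 40 to 20 bases before it. The red bar is higher than the grey one for ETS (41.2% against 20.5%), the pyrimidine tract, YY1, CRE, ZBTB33, ZFP143 and TATA, and lower for SP, NFY, NRF1 and the E-box.

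Where the ZBTB33 and NRF1 strings occurred, footprints lay on them. All 4 promoters with the ZBTB33 string and all 6 with the NRF1 string were covered, against 87.9% and 88.2% of all promoters with these strings. ETS strings were covered at 12 of the 21 genes (57.1%), against 53.4%, and YY1 strings at 3 of 7 (42.9%), against 49.1%. Where the footprint had to span the whole string, the ETS count was 6 and the YY1 count was 0. Where any shared base was enough but replicate 2 was read alone, the YY1 count was 5. SP strings were covered, by any shared base in both replicates, at 22 of 30 genes (73.3%), against 70.5%. The shares for ZBTB33 and NRF1 rest on counts so small that 1 uncovered gene would have put them below those of all promoters.

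The promoters with the ZBTB33 string are shown with it in capitals, and Rpl10a with its NRF1 string too. Rpl10a is at chr17:28328505-28328574 on the plus strand, Rpl26 at chr11:68901506-68901585 on the plus strand, Rps6 at chr4:86857358-86857447 on the minus strand and Rps28 at chr17:33824543-33824602 on the minus strand. The start is the base after the first 60 bases shown in Rpl10a and Rpl26, 80 in Rps6 and 40 in Rps28.
Rpl10a: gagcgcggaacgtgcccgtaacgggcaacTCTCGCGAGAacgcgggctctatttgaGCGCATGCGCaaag
Rpl26: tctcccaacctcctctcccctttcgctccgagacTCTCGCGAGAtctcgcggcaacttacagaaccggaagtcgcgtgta
Rps6: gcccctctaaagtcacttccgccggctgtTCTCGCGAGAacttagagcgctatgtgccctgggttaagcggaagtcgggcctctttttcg
Rps28: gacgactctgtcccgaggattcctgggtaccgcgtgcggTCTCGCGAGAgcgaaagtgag
In Rpl26 the string spanned positions -26 to -17, within a footprint from -35 to -10 in replicate 1 and from -34 to -11 in replicate 2. In Rps6, whose product is the target of the S6 kinases, it spanned -51 to -42, within footprints from -59 to -36 and from -59 to -39. In Rpl10a it spanned -31 to -22, within footprints from -36 to 11 and from -35 to -15. Only in Rps28 did the footprints, from 6 to 45 and from 6 to 18, cover the end of the string at -1 to 9 and not its centre. Rpl26 also carries CCGGAAG at 5 to 11, in lower case above, with no footprint over it in either replicate.

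Strengths at these 4 genes were above the middle of all open promoters. Rpl10a had 12.9 in replicate 1 and 10.9 in replicate 2, and Rpl26 had 17.7 and 9.03. Rps6 had 12.5 and 6.88, and Rps28 had 12.3 and 9.64. All 4 were above the 75th percentile in each replicate.

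The NRF1 string lay just after the start in several genes. In the sequences below it is in capitals, together with the YY1 string in Rpl7l1. Rpl37a is at chr1:72711230-72711284, Rps15 at chr10:80292401-80292455, Rps16 at chr7:28350659-28350718 and Rpsa at chr9:120127601-120127700, all on the plus strand, and Rpl7l1 is at chr17:46782627-46782686 on the minus strand. The first 30 bases are upstream of the start, except in Rpsa, where the stretch ends 66 bases before it.
Rpl37a: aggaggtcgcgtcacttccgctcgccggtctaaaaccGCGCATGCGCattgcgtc
Rps15: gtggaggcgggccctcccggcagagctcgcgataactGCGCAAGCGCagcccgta
Rps16: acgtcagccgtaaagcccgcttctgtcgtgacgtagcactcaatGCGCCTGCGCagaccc
Rpl7l1: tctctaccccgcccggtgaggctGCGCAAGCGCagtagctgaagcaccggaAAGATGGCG
Rpsa: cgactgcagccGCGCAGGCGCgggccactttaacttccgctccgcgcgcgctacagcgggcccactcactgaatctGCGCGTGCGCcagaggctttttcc
In both Rpl37a and Rps15 the string spanned positions 8 to 17. Footprints ran from 1 to 33 in replicate 1 and from 1 to 21 in replicate 2 at Rpl37a, and from 2 to 17 and from 2 to 21 at Rps15. At Rps16 the string, on the antisense strand at 15 to 24, lay within footprints from 10 to 30 and from 11 to 30. In Rpl7l1 it spanned -7 to 3, within footprints from -20 to 8 and from -14 to 8, and a further footprint from 10 to 27 in both replicates covered the first bases of the YY1 string at 22 to 30. Rpsa held the NRF1 string at -154 to -145 and, on the antisense strand, at -89 to -80, and both were covered in both replicates.

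ETS strings covered by a footprint are shown for 5 genes in which they were near the start. Rpl11, whose product binds Mdm2 when ribosome assembly is disturbed, is at chr4:136053369-136053433 and Rps3a1 at chr3:86142649-86142708, both on the minus strand. Rpl31 is at chr1:39367811-39367875, Rpl37 at chr15:5116563-5116632 and Rps21 at chr2:180257279-180257388, all on the plus strand. The start follows the first 40 bases in Rpl11, Rpl31 and Rps3a1, 50 in Rpl37 and 100 in Rps21.
Rpl11: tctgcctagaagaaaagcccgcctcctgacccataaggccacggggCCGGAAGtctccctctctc
Rpl31: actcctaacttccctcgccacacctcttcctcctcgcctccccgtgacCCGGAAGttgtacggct
Rps3a1: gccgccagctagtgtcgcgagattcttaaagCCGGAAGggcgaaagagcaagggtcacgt
Rpl37: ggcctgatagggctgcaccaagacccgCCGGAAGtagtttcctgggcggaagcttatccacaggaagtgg
Rps21: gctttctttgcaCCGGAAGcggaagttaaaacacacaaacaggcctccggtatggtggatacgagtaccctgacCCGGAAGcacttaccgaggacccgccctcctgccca
At Rpl11 the string spanned 7 to 13, and footprints from -8 to 11 in replicate 1 and from -6 to 11 in replicate 2 covered its first bases. At Rpl31 it spanned 9 to 15, within footprints from -7 to 18 and from -8 to 20. Rps3a1, the gene with the highest mean percentile, had it at -9 to -3, within footprints from -13 to 2 and from -17 to 5. In Rpl37 it spanned -23 to -17, within footprints from -26 to -9 and from -26 to -10. Rps21 held it at -88 to -82 and at -26 to -20, each within a footprint in both replicates. The genes whose sequences are printed were chosen after their footprints were seen.

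The pyrimidine tract at the start is shown in capitals for 3 of the 22 genes that have one, as examples of its length. Rpl7a is at chr2:26910777-26910826 and Rpl27a at chr7:109519165-109519214 on the plus strand, with the start after the first 30 bases, and Rps10 is at chr17:27635225-27635284 on the minus strand, with the start after the first 40 bases.
Rpl7a: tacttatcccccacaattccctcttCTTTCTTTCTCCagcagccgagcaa
Rpl27a: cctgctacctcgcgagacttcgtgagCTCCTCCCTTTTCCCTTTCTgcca
Rps10: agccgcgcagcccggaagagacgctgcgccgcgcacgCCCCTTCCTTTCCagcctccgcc
The tract spanned -5 to 7 in Rpl7a, -4 to 16 in Rpl27a and -3 to 10 in Rps10. A footprint touched it in both replicates at Rpl7a and Rpl27a and in neither at Rps10. Of the 22 genes, 5 had the tract touched in both replicates, 10 in 1 replicate and 7 in neither. Median strength was 14.8 in replicate 1 and 6.92 in replicate 2 for the 5 genes, against 9.06 and 7.23 for the 7, and the ranges overlapped in both replicates. Rpl19, touched in both, had 3.44 and 6.10, whereas Rpl13a, touched in neither, had 22.6 and 8.05.

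Ribosomal protein genes are short and often carry other RNAs. The 78 open genes had a median length of 3399.5 bp, against 25032 bp over all genes with open promoters. Small nucleolar RNAs, which guide the modification of ribosomal RNA, were annotated on the same strand inside 28 of them (35.9%), against 1.62%. Rpl4 held 5 and Rpl13a held 4. A coding gene on the opposite strand started within 1000 bp upstream of 13 (16.7%), against 13.9%, a share near that of all open promoters. The closest were Ndufa7 at 10 bp from Rps28, Rab13 at 44 bp from Rps27, Lias at 53 bp from Rpl9, Nkiras1 at 69 bp from Rpl15 and Mgat2 at 74 bp from Rpl36al. A peak at such close starts lies within 500 bp of both genes and was counted for each.

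Distal peaks, over 500 bp from any coding start, were counted in the gene and 25000 bp on either side. Their median was 7.46 per 100000 bp in replicate 1 and 7.62 in replicate 2 for the 78 genes, against 5.53 and 6.57 for all genes with open promoters. Rpl24 was the highest with 38.1 and 43.5, and Rpl4 had 1.81 and 0. Because the genes are short, this counts mostly their flanks.

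Genes of the same pathway outside the rule were open as well. All 7 other cytoplasmic ribosomal protein genes examined had a promoter peak in both replicates, with Fau at 19.2 in replicate 1 and 10.2 in replicate 2, and Rps4x lowest at 3.09 and 2.63. The median percentile of these 7 was 57.5 in replicate 1 and 49.3 in replicate 2. Mrpl49, counted below among mitochondrial ribosomal proteins, had the same strengths as Fau in both replicates. All 17 genes of translation factors and other TOP mRNAs, all 14 of RNA polymerase I, all 49 found for ribosome biogenesis and all 78 of mitochondrial ribosomal proteins were open. Their strengths were not alike. The TOP mRNA genes had a median percentile of 83.4 in replicate 1 and 87.0 in replicate 2, led by Npm1 with a strength of 26.8 and 12.2. Ribosome biogenesis genes had 64.5 and 68.0, mitochondrial ribosomal protein genes 55.4 and 60.8, and RNA polymerase I genes 53.5 and 56.9. The 78 ribosomal protein genes chosen by the rule, at 75.4 and 75.3, lay between the TOP mRNA genes and the biogenesis genes in both replicates, whereas the 7 outside it lay below the biogenesis genes. The thymocyte genes lay at 64.4 and 43.8.

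**Figure D4:**
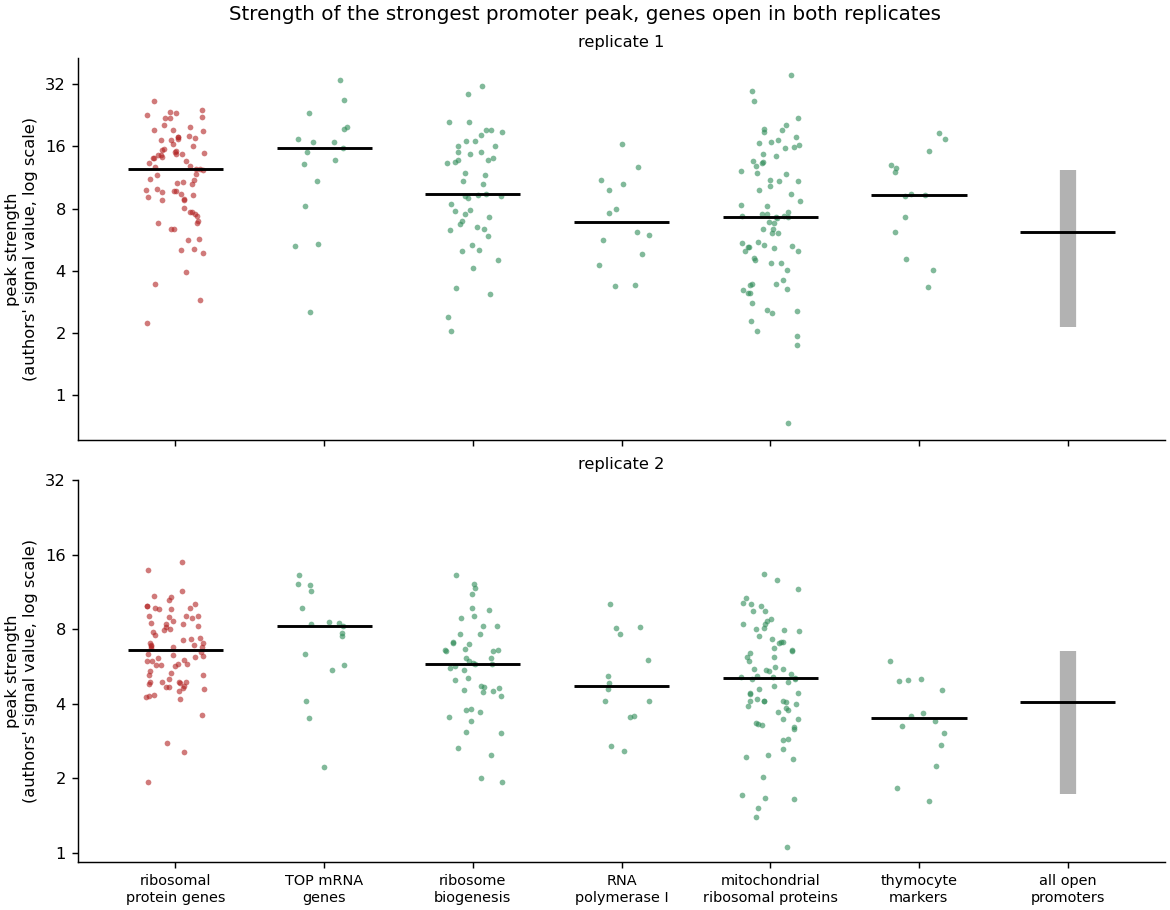
Strength of the strongest promoter peak (authors' signal value, log scale) in replicate 1 (top) and replicate 2 (bottom) for open genes of each list; points are genes, black lines medians, and the grey bar the middle 50% of all 12325 open promoters. The medians of ribosomal protein genes are 12.4 and 6.58, below those of TOP mRNA genes at 15.8 and 8.26 and above those of ribosome biogenesis at 9.40 and 5.79 and of all open promoters at 6.19 and 4.08.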

How the data were processed

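DNase-seq libraries of thymus from 2 mice were analysed as 1 group; the labels name separate biological replicates. Per the labels the files were made on mm10. The aligner, the peak and footprint callers and the treatment of CAST reads were not given in the sources used here. Each peak's signal (its strength) is the authors' deposited value, and all of a replicate's strengths (100%, tolerance 0.05 steps) are multiples of 1 step: 0.00519 (replicate 1), 0.00576 (replicate 2). Strengths were therefore compared only within a replicate, as values or percentiles. The cut-rate track holds deposited q-values (p-values adjusted as false discovery rates), listed only under 0.05. The footprint files' score column is 0.01 throughout and was not used.

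With Python 3.11.15, numpy 2.4.6 and pandas 2.3.3, the longer of the authors' 2 peak lists per replicate was read at GENCODE M21 basic transcript starts. Of 20807 coding genes, 54 with a shared symbol were left out. Footprints, false discovery rates and distances used the start nearest the strongest peak of replicate 1. Percentiles ranked genes open in both replicates. Word copies were counted on both strands of the assembled chromosomes. The steps were tested on simulated data. No p-value was computed: with 1 group, counts and medians stand beside those of all promoters. The members, lists and rules were chosen with earlier results of these data known. Genes were named by rule: those not open, the 8 highest and 8 lowest percentiles, the 4 largest replicate differences, paralogue-named genes, Rpsa and the stalk, the 5 with most and 5 with fewest footprints, and the 5 nearest head-to-head neighbours. Some genes the rule names are not reported here. The list for ribosome biogenesis had 50 symbols, of which Rio1 matched no gene. Alternatives covered the window, the peak list, the start, how strength and footprints were counted, and leaving out each replicate.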

Additional observations from a re-analysis of the deposited data

How the results depend on the processing

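The number of open ribosomal protein genes stayed at 78, or 76 with the outermost start, under all 7 alternatives, including each replicate alone. Their median percentile, 73.7 by the mean of both replicates, was 72.4 with summed peaks, 72.8 among CpG-rich promoters, 73.76 within 250 bp, 73.79 within 1000 bp, 71.9 with the stricter lists, and 75.3 to 75.4 with 1 replicate left out. The median of 9.5 footprints per promoter became 8 within 250 bp, 6 where footprints of both replicates overlap (5 over all open promoters) and 5.5 inside peaks (5.5 over all open promoters), and was 8 to 10 with 1 replicate left out. Genes with a covered ETS string numbered 12, but 6 where the footprint had to span the whole string, and 12 to 15 with 1 replicate left out. For YY1 they numbered 3, but 0 with the whole string, and 4 to 5 with 1 replicate left out. The median midpoint of the strongest peak, -21.5 bp, was -14.5 bp from the outermost start and -23.5 bp with either replicate left out. The stricter settings count fewer footprints by construction. No paired analysis was possible because there is 1 group. With 2 animals the spread between them rests on 1 difference: the SD was 0.0387 for the median percentile and 1.41 for the median number of footprints (n = 2). Counting error could not be estimated without the read depth.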
